A study of Mus musculus with 8 samples.

Results

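The genes described are 50 that act in mitosis, taken by symbol from the 55291 gene rows deposited for this study: cyclins and kinases of mitotic entry, kinetochore and spindle checkpoint proteins, spindle motors, condensins and cytokinesis factors. The symbols of all 50 were found in the tables, and all 50 match protein-coding genes in GENCODE M21 on mm10. RNA was sequenced from outer medullary collecting ducts, the stretch of collecting duct that crosses the outer medulla of the kidney, of C57BL/6J mice, an inbred laboratory strain with no allele or transgene named in the labels. The 4 normal-salt libraries came from mice fed 0.3% salt and the 4 high-salt libraries from mice fed 3% salt, in each case for 3 days before dissection. For a library, 100 to 120 tubules of 1 mouse were pooled after dissection from kidneys treated with liberase, a blend of tissue-dissociating enzymes. The sources used here give neither age nor sex. Levels are in CPM (counts scaled to a fixed library total) or, where genes are compared with each other, in TPM (the same after division by transcript length). Libraries are named by diet and by the number in the column name, which runs over 1, 2, 3 and 6 under normal salt and over 2, 3, 4 and 6 under high salt.

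A cell enters mitosis when cyclin-dependent kinase 1 is switched on by its A- and B-type cyclins. Chromosomes are then condensed, attached through kinetochores to spindle microtubules, held back by the spindle checkpoint until every chromosome is attached, and separated once the anaphase-promoting complex releases them. Most transcripts of these proteins are made only as cells approach division, from promoters that the DREAM complex represses in resting cells and that B-MYB and FOXM1 activate later. The collecting duct of an adult kidney is a slowly renewing epithelium of principal and intercalated cells, in which few cells divide at any time.

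Promoters of the members share 2 short elements, which are shown here because most members with a window hold them. The CHR (cell cycle genes homology region, searched as TTTGAA) is where the DREAM complex binds, and the CCAAT box (searched as CCAAT) is where NF-Y binds. Both strands of the RefSeq promoter windows on GRCm38.p6 were searched, from 250 bases before to 50 bases after each start. A window was found for 43 of the 50 members, 45 windows in all. There was none for Aurkb, Ccna2, Foxm1, Kif20a, Smc4, Stmn1 and Tpx2. The windows below run from 180 bases before the start through the first 30 transcribed bases and belong to the 6 named members with both elements and the smallest p between diets. They lie at chr5:45669745-45669954 (Ncapg, plus strand), chr4:52439041-52439250 (Smc2, plus), chr1:189688057-189688266 (Cenpf, minus), chr5:123749546-123749755 (Kntc1, plus), chr15:102296113-102296322 (Espl1, plus) and chr19:37376202-37376411 (Kif11, plus). Capitals mark each CHR and CCAAT box that lies whole within the printed bases. On the other strand these read TTCAAA and ATTGG. A further CHR of Smc2, 26 bases after the start, is cut by the end of the printed bases and is not marked.
Ncapg: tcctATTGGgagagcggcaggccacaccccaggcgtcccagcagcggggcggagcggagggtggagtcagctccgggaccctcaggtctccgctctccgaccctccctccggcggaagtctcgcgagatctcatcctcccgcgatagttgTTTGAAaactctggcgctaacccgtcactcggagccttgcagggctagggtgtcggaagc
Smc2: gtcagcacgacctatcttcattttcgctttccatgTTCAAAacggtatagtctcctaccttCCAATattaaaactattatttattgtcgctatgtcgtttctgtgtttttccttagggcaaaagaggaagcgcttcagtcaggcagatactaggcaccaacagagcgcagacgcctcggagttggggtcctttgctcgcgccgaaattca
Cenpf: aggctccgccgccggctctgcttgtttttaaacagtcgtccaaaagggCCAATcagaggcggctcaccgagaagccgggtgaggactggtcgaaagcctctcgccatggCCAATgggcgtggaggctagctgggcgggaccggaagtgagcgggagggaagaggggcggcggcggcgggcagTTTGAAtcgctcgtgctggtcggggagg
Kntc1: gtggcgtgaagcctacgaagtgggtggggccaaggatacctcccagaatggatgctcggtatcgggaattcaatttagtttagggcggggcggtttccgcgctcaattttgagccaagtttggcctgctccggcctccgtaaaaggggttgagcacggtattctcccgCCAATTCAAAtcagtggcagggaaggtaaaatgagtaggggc
Espl1: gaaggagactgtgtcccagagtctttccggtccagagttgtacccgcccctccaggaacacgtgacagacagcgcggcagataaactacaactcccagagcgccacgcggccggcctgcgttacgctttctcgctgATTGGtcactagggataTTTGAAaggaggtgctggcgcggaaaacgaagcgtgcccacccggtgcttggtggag
Kif11: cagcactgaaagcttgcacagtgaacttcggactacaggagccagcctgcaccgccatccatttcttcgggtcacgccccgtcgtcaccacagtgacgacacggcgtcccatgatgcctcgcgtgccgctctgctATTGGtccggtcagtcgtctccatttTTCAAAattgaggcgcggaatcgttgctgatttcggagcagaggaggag

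The CHR was present in 35 of the 45 windows of members (77.8%), against 17.9% of all 32851 windows of the same length. A CCAAT box was present in 33 (73.3%, against 37.4%) and both elements in 29 (64.4%, against 6.95%). Of 45 CHR matches in these windows, 34 began within 50 bases of the start, as in the Cenpf, Espl1 and Kif11 windows, whereas 72 of 75 CCAAT matches lay before it. In Kntc1 the CHR and the CCAAT box overlap. The variant TTCGAA was found in 3 windows of members (6.67%, against 1.56%) and an E2F site, searched as TTCCCGC or TTGGCGC, in 9 (against 6.81% of all windows). DNA replication genes had fewer CHR and more E2F matches, with a CHR in 11.1% and an E2F site in 48.9% of 45 windows. Other mitotic genes held the elements too: of 61 of their windows, 47.5% held a CHR, 72.1% a CCAAT box and 21.3% an E2F site. Between diets the 31 tested members with a CHR had a median log2 fold change of 0.90. The 10 with a window but no CHR had one of 0.93, and the fold changes of these groups overlapped. Among the 10 was Bub1, whose window holds the variant TTCGAA. Whether the element goes with larger or smaller differences among the members was not tested. A match is a string of letters and was not tested for binding.

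**Figure D1:**
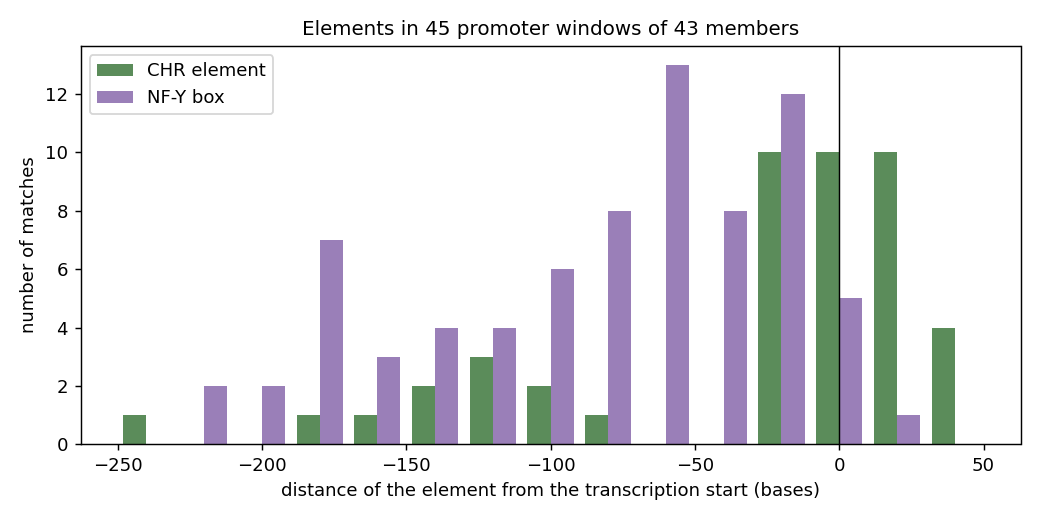
Number of CHR elements and CCAAT (NF-Y) boxes, y axis, by distance in bases from the annotated start, x axis, in 45 promoter windows of 43 members. CHR matches gather around the start and NF-Y boxes lie before it, with 34 of 45 CHR matches within 50 bases of the start and 72 of 75 NF-Y boxes before it.

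The libraries held 64.8 to 94.1 M estimated counts, so that 1 CPM stood for at least 64.8 counts. Markers of principal cells summed to 18328 to 23095 CPM under normal and 25369 to 30379 CPM under high salt, and those of intercalated cells to 11855 to 12573 and 9917 to 11746 CPM, with Aqp2, the vasopressin-regulated water channel, and Aqp6, an intercalated cell aquaporin, the highest. Neither sum overlapped between diets. Aqp2 alone had means of 9979 CPM under normal and 15689 CPM under high salt. Of the 10 principal cell markers, 5 had a log2 fold change above 0 and 5 below it (median 0.005). Of the 12 intercalated cell markers, 2 lay above 0 and 10 below it. The part of these cells in the results below was not tested. Normal-salt library 1 stood apart in markers of other cells. Its 14 fibroblast and pericyte markers summed to 334 CPM, against 75.0 to 96.6 CPM in the other normal-salt libraries and 86.6 to 195 CPM under high salt, and its 11 macrophage markers to 59.3 CPM, against 10.5 to 17.0 and 7.17 to 21.1 CPM. In these lists 8 of 14 and 7 of 11 markers had a mean of at least 1 CPM, and none was at 0 in all libraries. The fibroblast and pericyte markers with the highest means, Col1a2 and Cspg4, went opposite ways in normal-salt library 1. Col1a2 had 139 CPM there, against 16.6 to 30.2 CPM in the other normal-salt libraries. Cspg4 had 26.4 CPM, against 35.6 to 39.2 CPM. The 8 lymphocyte markers summed to at most 0.663 CPM. Endothelial markers summed to 227 to 343 CPM under normal and 204 to 335 CPM under high salt, and those of the adjoining thick ascending limb to 1001 to 2550 and 452 to 3197 CPM. Because 42 of the 50 members were also highest of their diet in normal-salt library 1, the counts and the leading genes are given with and without it. That library was left out with its values known. Leaving out a library in which most members were high enlarges their difference between diets by the calculation itself. The counts without it are therefore no separate support, and the shares over all genes beside them are not a like comparison.

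The members summed to 356, 223, 186 and 182 CPM in normal-salt libraries 1, 2, 3 and 6 and to 399, 539, 337 and 455 CPM in high-salt libraries 2, 3, 4 and 6. Normal-salt library 1 lay within the high-salt range and the other 3 normal-salt libraries below it. Of the 48 members that reached 1 CPM in at least 4 libraries and were tested, 47 had a higher mean log2(CPM + 1) under high salt, called a higher mean from here on (52.8% of all 13401 genes tested did) and the median log2 fold change, on the log2(CPM + 1) scale, was 0.91 against 0.01 over all genes (the added 1 CPM makes the fold change of low genes smaller). The ratio of mean CPM, high over normal salt, had a median of 2.16 over the tested members, and of 3.34 without normal-salt library 1. In bulk RNA, more dividing cells and more of these transcripts per cell cannot be told apart.

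By limma over all genes, 0 of the 48 tested members passed an adjusted p of 0.05 in the 8 libraries, where 0.0298% of all genes passed as higher (11 genes passed in either direction, 0.0821%). At an adjusted p under 0.1 there were 9 members, all higher, against 0.388% of all genes. An unadjusted p under 0.05 was reached by 37 members as higher (5.95% of all genes) and by 0 as lower. The 4 high-salt libraries lay above all 4 normal-salt libraries in 19 members (3.66% of all genes). Without normal-salt library 1 the median log2 fold change was 1.18, and 15 members passed as higher (0.269% of all genes) and 0 as lower. They were Cdk1, Ccna2, Aurka, Bub1, Bub1b, Kntc1, Cenpf, Ndc80, Kif11, Stmn1, Mki67, Ncapg, Ncaph, Iqgap3 and Diaph3. In that comparison 44 had an unadjusted p under 0.05 as higher (7.81% of all genes) and the diets did not overlap in 43 of the 48 (7.14% of all genes).

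**Figure D2:**
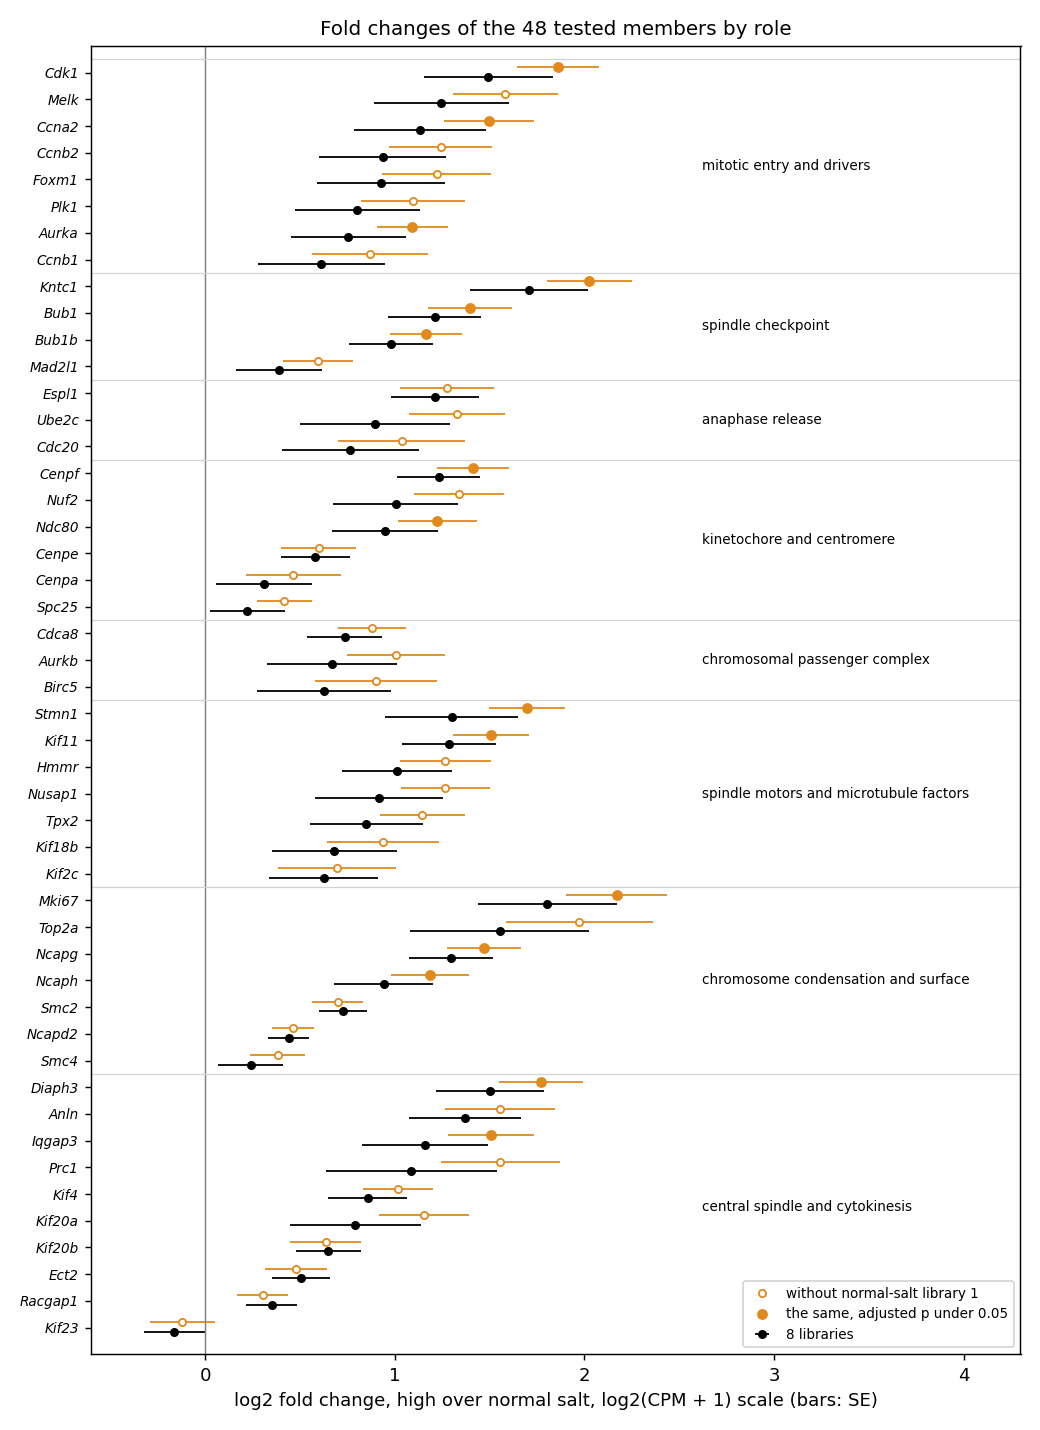
Log2 fold change of each tested member, x axis, on the log2(CPM + 1) scale with its standard error, grouped by role, in all 8 libraries (black) and without normal-salt library 1 (orange, filled where the adjusted p was under 0.05). Of 48 members 47 lie to the right of 0 in both fits, and the 15 filled points are spread over 6 of the 8 roles.

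Genes that drive entry into mitosis were 8 of the members, and all 8 had higher means under high salt, with 3 passing without normal-salt library 1. Cdk1 (chr10:69335146-69352938, minus strand, mm10), the kinase that starts mitosis, was measured at 4.46, 1.12, 1.02 and 0.774 CPM in normal-salt libraries 1, 2, 3 and 6 and at 5.61, 8.08, 4.18 and 7.39 CPM in high-salt libraries 2, 3, 4 and 6, the order kept for all values below. Normal-salt library 1 lay just above the lowest high-salt library, and the other normal-salt libraries were well below. The log2 fold change was 1.49 (SE 0.34, adjusted p = 0.141), and 1.86 without that library (adjusted p = 0.0144). Ccna2, the A-type cyclin, had 6.32, 2.96, 1.32 and 1.07 CPM and then 5.38, 7.85, 6.22 and 6.88 CPM (adjusted p = 0.254, and 0.037 without normal-salt library 1). Its exons overlap those of Exosc9 on the other strand over 12.5% of their length. Aurka, the kinase of the spindle poles, was as high in normal-salt library 1 (5.46 CPM) as in the highest high-salt library (3.76 to 5.45 CPM), while the remaining normal-salt libraries had 1.15 to 1.87 CPM. It passed only without that library (log2 fold change 1.09, adjusted p = 0.0477).

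Ccnb1, a B-type cyclin, showed the least separation of this group. It was measured at 2.34, 1.09, 0.840 and 0.165 CPM under normal salt and 1.43, 2.96, 1.12 and 3.01 CPM under high salt, and did not pass with or without normal-salt library 1 (log2 fold change 0.61, adjusted p = 0.576, and 0.87, adjusted p = 0.255). Its relative Ccnb2 had means of 1.55 ± 1.31 and 3.60 ± 1.34 CPM (SD, n = 4 each, as for all means below). Foxm1, a transcription factor that activates late cell cycle genes, had 6.03, 2.81, 2.46 and 1.28 CPM and then 5.89, 10.9, 4.46 and 5.16 CPM (log2 fold change 0.93, adjusted p = 0.369). Melk, a kinase of dividing cells, had 0.997 ± 1.14 and 3.35 ± 1.21 CPM (1.25, adjusted p = 0.216, and 0.0525 without normal-salt library 1). Plk1, the polo-like kinase of mitotic entry and exit, had 1.35 ± 1.15 and 2.94 ± 1.28 CPM.

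The spindle checkpoint, which delays anaphase until chromosomes are attached, was represented by 4 tested members, all with higher means, of which 3 passed without normal-salt library 1. Kntc1, a part of the complex that recruits checkpoint proteins to kinetochores, was measured at 4.47, 1.77, 0.924 and 1.20 CPM and then 6.68, 9.26, 6.44 and 11.5 CPM. The diets did not overlap, although normal-salt library 1 was the highest of its diet. Its log2 fold change of 1.71 (SE 0.31, adjusted p = 0.0815) was second among the members to that of Mki67, and it was 2.02 without that library (adjusted p = 0.0144). Bub1, a checkpoint kinase, had 1.23, 0.679, 0.159 and 0.216 CPM and then 2.42, 2.63, 1.91 and 3.19 CPM, again without overlap (1.21, SE 0.25, adjusted p = 0.0937). Bub1b, which inhibits the anaphase-promoting complex, had 4.25 ± 1.57 and 9.20 ± 2.10 CPM (0.98, adjusted p = 0.141, and 0.0437 without normal-salt library 1). Mad2l1, another inhibitor of that complex, was nearer to level at 8.20 ± 3.13 and 10.7 ± 1.96 CPM (0.39, SE 0.23, adjusted p = 0.607). Ttk, the checkpoint kinase that phosphorylates kinetochores, did not reach the level needed for testing. It had 1.45, 0.281, 0.106 and 0.482 CPM and then 0.844, 1.89, 0.976 and 1.63 CPM.

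For release into anaphase all 3 members had higher means, and 0 passed by limma with or without normal-salt library 1 (2 of 3 had an unadjusted p under 0.05 in the 8 libraries). Espl1, separase, the protease that cuts cohesin, had 0.972, 0.574, 0.308 and 1.20 CPM and then 2.18, 4.01, 2.55 and 3.56 CPM. The diets did not overlap, and normal-salt library 1 was not the highest of its diet (log2 fold change 1.21, SE 0.23, adjusted p = 0.0815, and 0.0698 without it). In TPM the diets overlapped, with normal-salt library 1, at 1.96 TPM, the highest of its diet and above 3 of the high-salt libraries (log2 fold change 0.43, adjusted p = 0.715). Ube2c, the ubiquitin-conjugating enzyme of the anaphase-promoting complex, had 4.40, 1.09, 0.531 and 0.342 CPM and then 3.06, 4.86, 2.36 and 2.49 CPM (0.90, adjusted p = 0.467). Cdc20, its activator, had 3.89 ± 2.21 and 7.31 ± 3.63 CPM (0.77, adjusted p = 0.501).

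Kinetochore and centromere genes had higher means in 6 of 6 members, with 2 passing without normal-salt library 1. Cenpf, a large kinetochore protein made in late cell cycle, was measured at 4.84, 3.16, 2.36 and 2.24 CPM and then 8.93, 9.53, 6.09 and 9.90 CPM. All high-salt libraries were above all normal-salt libraries (log2 fold change 1.23, SE 0.22, adjusted p = 0.0792, and 1.41, adjusted p = 0.0216, without normal-salt library 1). Cenpe, a kinetochore motor, had 3.05 ± 0.457 and 5.13 ± 1.24 CPM without overlap and passed in neither fit (adjusted p = 0.27 and 0.234). Of the NDC80 complex, which holds microtubule ends, Ndc80 had 1.15 ± 0.971 and 2.93 ± 0.657 CPM (0.95, adjusted p = 0.233, and 0.0477 without normal-salt library 1) and Nuf2 1.55 ± 1.42 and 3.72 ± 1.11 CPM (1.00, adjusted p = 0.301). The NDC80 subunit Spc25 was measured at 14.9, 8.67, 7.23 and 9.04 CPM and then 12.8, 12.9, 10.3 and 9.86 CPM (0.22, SE 0.20, adjusted p = 0.759). Per length it was the highest of these 3 subunits (13.4 ± 2.77 and 16.5 ± 2.12 TPM, against 1.27 ± 1.05 and 3.38 ± 0.956 TPM for Nuf2), and its difference was the smallest. Cenpa, the histone of the centromere, had 1.83 ± 0.678 and 2.57 ± 1.16 CPM (adjusted p = 0.734).

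The chromosomal passenger complex corrects wrong attachments and later guides cytokinesis. Its 3 members had higher means and passed in neither fit. Cdca8, borealin, had 3.02, 1.38, 1.93 and 1.81 CPM and then 3.94, 5.03, 3.48 and 3.54 CPM without overlap (log2 fold change 0.74, SE 0.20, adjusted p = 0.199, and 0.0772 without normal-salt library 1). Aurkb, its kinase, had 1.41 ± 1.37 and 2.45 ± 0.589 CPM (0.67, adjusted p = 0.548), and Birc5, survivin, 0.943 ± 0.901 and 1.94 ± 1.09 CPM (0.63, adjusted p = 0.592).

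Spindle motors and microtubule factors had higher means in 7 of 7 tested members, and 2 passed without normal-salt library 1. Kif11, the motor that pushes spindle poles apart, was measured at 3.76, 2.08, 1.12 and 1.62 CPM and then 5.60, 8.17, 5.20 and 6.72 CPM. The diets did not overlap (log2 fold change 1.29, SE 0.25, adjusted p = 0.0815, and 1.51, adjusted p = 0.0216, without that library). Stmn1, stathmin, which takes microtubules apart, had 29.3, 13.4, 7.47 and 7.28 CPM and then 30.9, 37.3, 26.2 and 32.9 CPM. Normal-salt library 1 lay inside the high-salt range and the others far below it (1.30, adjusted p = 0.199, and 1.70, adjusted p = 0.0144, without it). Tpx2, Nusap1 and Hmmr, which build or bundle spindle microtubules, had log2 fold changes of 0.85, 0.92 and 1.01 (adjusted p = 0.347, 0.371 and 0.216). Kif18b, a motor that shortens astral microtubules, had 0.961 ± 0.843 and 2.06 ± 0.925 CPM (0.68, adjusted p = 0.521). Kif2c, which depolymerises microtubules at centromeres, had 0.818 ± 0.373 and 1.92 ± 1.26 CPM without overlap (0.63, adjusted p = 0.493). Its value was 3.81 CPM in high-salt library 3 and 1.24 to 1.34 CPM in high-salt libraries 2, 4 and 6, against 0.266 to 1.06 CPM under normal salt. Kif15, a partner motor of Kif11, was likewise not tested. It had 1.05, 0.187, 0.170 and 0.609 CPM and then 0.399, 0.719, 1.18 and 0.838 CPM, and its diets overlapped.

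Of the genes that shape chromosomes, 7 of 7 had higher means and 3 passed without normal-salt library 1. Mki67 (chr7:135689784-135716361, minus strand, mm10) encodes Ki-67, a protein of the mitotic chromosome surface that is used to mark cycling cells, and had the largest log2 fold change of the members. It was measured at 17.2, 9.24, 4.40 and 4.24 CPM and then 31.0, 40.8, 21.2 and 25.4 CPM. Every high-salt library was above every normal-salt library (1.80, SE 0.37, adjusted p = 0.0937, and 2.17, adjusted p = 0.0179, without normal-salt library 1). Top2a (chr11:98992943-99024189, minus strand), the topoisomerase that untangles chromosomes, had 16.1, 8.85, 2.46 and 3.41 CPM and then 15.2, 33.8, 12.6 and 24.0 CPM, so that normal-salt library 1 was above 2 of the high-salt libraries (1.55, SE 0.47, adjusted p = 0.248, and 0.0706 without it).

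Condensin subunits, which compact chromosomes, differed in how far the diets stood apart. Ncapg had 1.37, 0.738, 0.308 and 0.393 CPM and then 2.45, 3.30, 3.23 and 3.38 CPM, the smallest p of all members (log2 fold change 1.30, SE 0.22, adjusted p = 0.0702, and 0.0216 without normal-salt library 1). Its exons overlap those of Lcorl, at a mean of 17.7 CPM, on the other strand over 13.4% of their length. Smc2 had 11.6, 12.5, 12.02 and 13.3 CPM and then 20.5, 19.8, 18.3 and 26.4 CPM. Here normal-salt library 1 was the lowest of its diet, and all high-salt libraries were higher (0.73, SE 0.13, adjusted p = 0.0787, and 0.70, adjusted p = 0.0672, without it). Ncapd2 had 18.5 ± 1.19 and 25.5 ± 2.68 CPM without overlap (0.44, SE 0.11, adjusted p = 0.163). Ncaph had 2.05 ± 1.20 and 4.66 ± 1.20 CPM (adjusted p = 0.212, and 0.0498 without normal-salt library 1). Smc4, the partner of Smc2, overlapped between diets at 25.3 ± 5.71 and 30.0 ± 5.81 CPM (0.24, SE 0.17, adjusted p = 0.688).

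**Figure D3:**
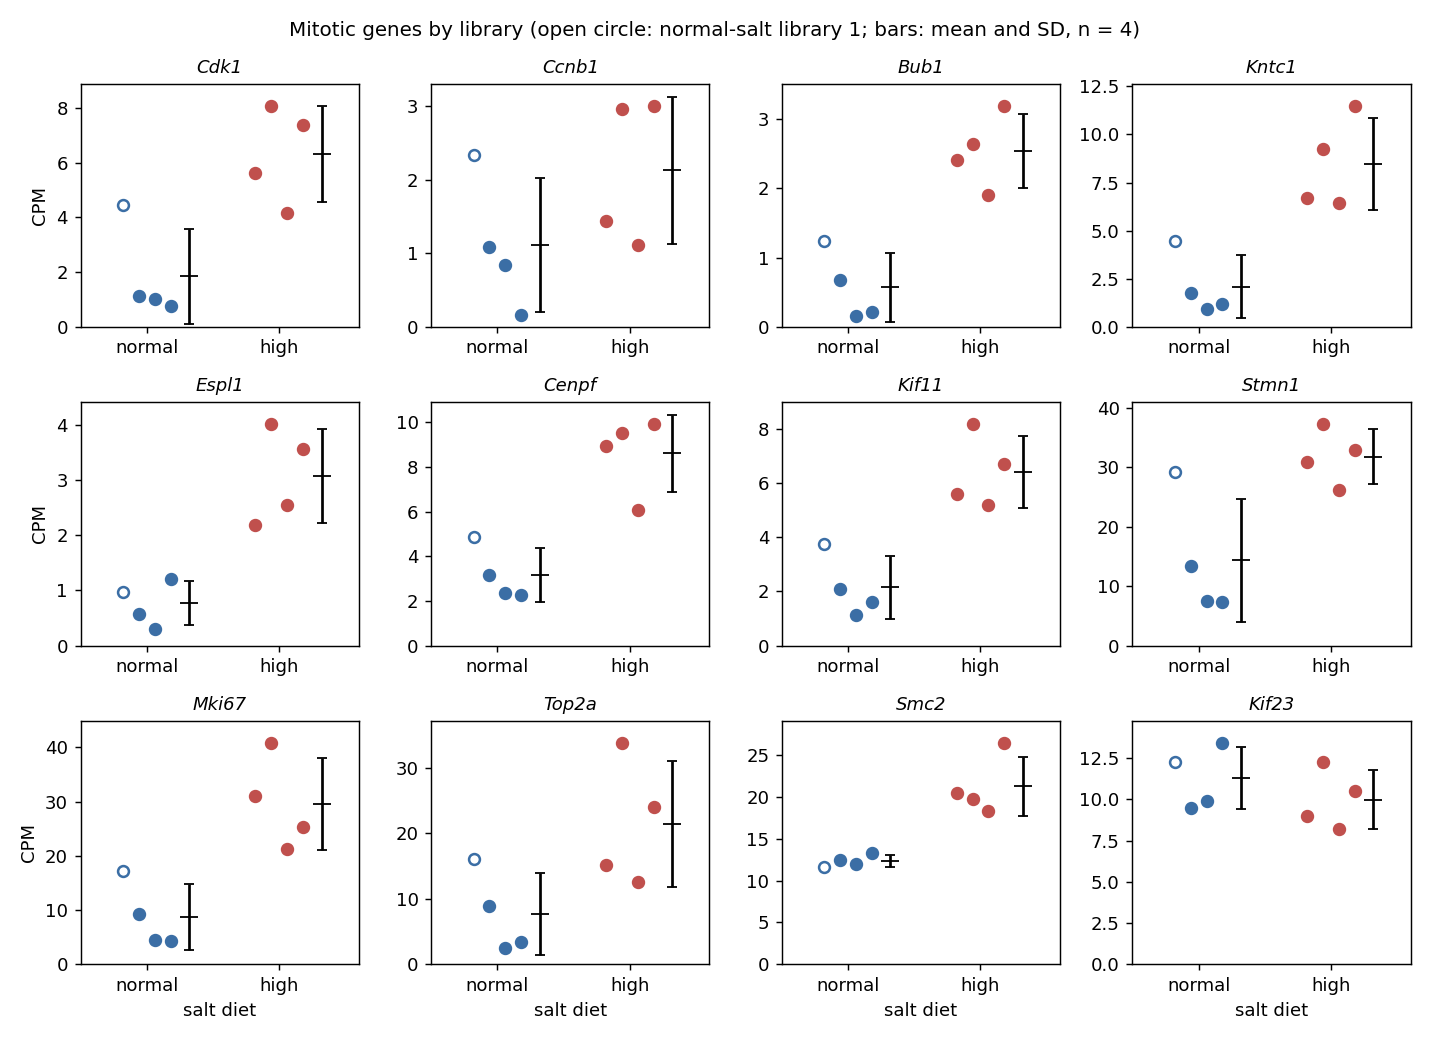
CPM of 12 members (y axes, each from 0) in the 4 normal-salt (blue) and 4 high-salt (red) libraries, with the mean and SD of each diet. The open circle, normal-salt library 1, lies within or near the high-salt range for Cdk1, Ccnb1, Stmn1 and Top2a and with its own diet for Smc2, and Kif23 shows no separation.

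Central spindle and cytokinesis genes divide the cell body after chromosomes have parted. Of these 10 members 9 had higher means, and 2 passed without normal-salt library 1. Diaph3, a formin that assembles actin, was measured at 2.70, 1.07, 0.690 and 0.571 CPM and then 3.43, 5.11, 5.22 and 6.78 CPM without overlap (log2 fold change 1.503, SE 0.28, adjusted p = 0.0815, and 1.77, adjusted p = 0.0179, without that library). Anln, anillin, the scaffold of the contractile ring, had 7.51, 6.31, 4.31 and 2.41 CPM and then 10.2, 21.7, 12.03 and 14.1 CPM without overlap (1.37, adjusted p = 0.116, and 0.0588 without it). Iqgap3, a scaffold of proliferating cells, had 2.36 ± 1.95 and 5.93 ± 1.83 CPM (1.16, adjusted p = 0.217, and 0.0362 without it). Prc1, which bundles the midzone, had 4.15 ± 4.10 and 8.49 ± 3.77 CPM, and the midzone motors Kif4, Kif20a and Kif20b had log2 fold changes of 0.86, 0.79 and 0.65 (adjusted p = 0.16, 0.46 and 0.189). Kif20a shares 29.3% of its exon length with Cdc23 on the other strand. Kif4 likewise shares 15.1% with Pdzd11, at a mean of 25.3 CPM, and Prc1 11.1% with Rccd1, at 10.7 CPM.

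Kif23 and Racgap1 form centralspindlin, which recruits the contractile ring through Ect2. Kif23 was the 1 tested member with a lower mean under high salt. It was measured at 12.3, 9.50, 9.92 and 13.4 CPM and then 8.97, 12.3, 8.19 and 10.5 CPM (change on the log2 scale -0.16, SE 0.16, adjusted p = 0.782), so that the diets overlapped throughout. In TPM its log2 fold change was 0.38 (adjusted p = 0.697), so no direction is given for it. Racgap1 had 28.5, 33.0, 32.7 and 32.2 CPM and then 48.4, 47.1, 35.0 and 33.6 CPM. Its diets did not overlap, but high-salt libraries 4 and 6 lay close to the normal-salt range (0.35, SE 0.13, adjusted p = 0.39). Ect2 had 6.62 ± 0.674 and 9.92 ± 1.80 CPM, also without overlap (0.51, adjusted p = 0.239).

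Compared per length, Stmn1 was the highest member, at 25.1 ± 15.3 TPM under normal and 58.6 ± 9.69 TPM under high salt. Racgap1 followed at 19.6 ± 2.66 and 28.4 ± 5.62 TPM, and Spc25 came next. The lowest were Kif15 at 0.590 ± 0.598 and 0.353 ± 0.236 TPM, Ttk at 0.325 ± 0.290 and 0.845 ± 0.302 TPM and Cenpe at 0.626 ± 0.113 and 1.098 ± 0.266 TPM. In TPM, where 43 members were tested, all 43 had higher means (8131 of all 13623 genes did). The median log2 fold change was 0.77, against 0.05 over all genes. By limma 0 passed (0% of all genes passed as higher), with 31 at an unadjusted p under 0.05 as higher (761 of all 13623 genes). There the diets did not overlap in 13 (3.8% of all 13623 genes tested there). The log2 fold change was smaller by over 1.5 times in TPM for Kntc1 (0.94), Ncapg (0.73), Melk (0.76), Iqgap3 (0.62), Kif20a (0.53), Foxm1 (0.52) and Espl1 (0.43). It was larger in TPM for others, among them Cdk1 (2.11, against 1.49 in CPM) and Ube2c (1.19, against 0.90). In TPM too 1 was added before the log, which makes the fold change smaller for genes with low TPM.

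The members moved together from library to library within a diet as well as between diets. Over the 1128 pairs of tested members, the median Pearson correlation of log2(CPM + 1) was 0.85 across the 8 libraries. After each diet's mean was taken away it was 0.77, and 0.59 without normal-salt library 1. These points share their libraries, and the correlations are a description. High-salt library 3 was the highest of its diet in 32 of the 50 members and high-salt library 4 the lowest in 37. Under normal salt, library 6 was the lowest in 28. Nusap1, Nuf2 and Cdk1 followed the other members most closely, with median within-diet correlations of 0.90, 0.89 and 0.87. Racgap1 (-0.15), Smc2 (-0.02) and Kif20b (0.20) followed them least, and these 3 were among the 8 members in which normal-salt library 1 was not the highest of its diet. The other 5 were Kif23, Cenpe, Ncapd2, Ect2 and Espl1. The correlations per member include normal-salt library 1, so a member not raised there tends to follow the others less by the calculation itself. Nusap1, Nuf2 and Kif20b are named here for these correlations, outside the rule for named genes.

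Normal-salt library 1 held a median of 2.87 times the mean CPM of the other 3 normal-salt libraries over the 50 members, and the mean of the 4 high-salt libraries was above it in 32. It lay above the lowest high-salt library in 31 members and above all of them in 5 (Kif23, Spc25, Aurka, Aurkb and Mad2l1). Normal-salt libraries 2, 3 and 6 all lay below the lowest high-salt library in 44 of the 50, and in 7.14% of all genes tested. With the mean of the fibroblast and pericyte markers as a covariate in all 8 libraries, 22 of the 48 tested members passed as higher (1.28% of all genes) and 0 as lower. Of the 15 that passed without normal-salt library 1, 13 were among these 22. With the macrophage marker mean as covariate 11 passed (0.298% of all genes), and with that of the thick ascending limb 4, Kntc1, Ncapg, Smc2 and Diaph3 (0.254%). Array quality weights, which give less weight to libraries far from their group, gave 19 (0.657%). Normal-salt library 1 has the highest sum of both the fibroblast and the macrophage markers, and the lowest array weight (0.239). The fits with these covariates or weights are therefore not separate from leaving that library out, and the shared members are no added support. Within the high-salt diet, libraries 3 and 6, which had the highest member sums, also had the highest fibroblast and pericyte sums (195 and 171 CPM, against 105 and 86.6 CPM in libraries 2 and 4). Which cells the mitotic transcripts came from was not tested.

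**Figure D4:**
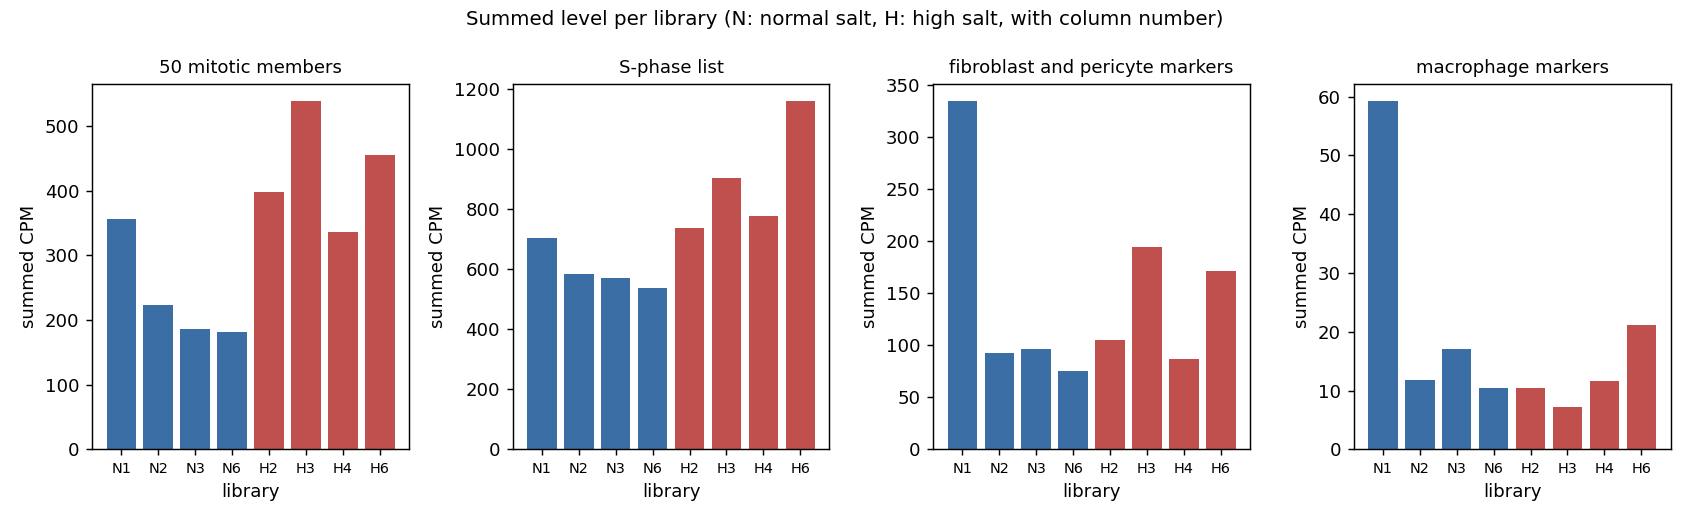
Summed CPM (y axes, from 0) per library of the 50 members, of the S-phase list and of markers of fibroblasts and pericytes and of macrophages, with normal-salt libraries in blue and high-salt libraries in red. Normal-salt library 1 (N1) is the highest of its diet in all 4 panels, at 356, 704, 334 and 59.3 CPM, and the high-salt libraries exceed normal-salt libraries 2, 3 and 6 in the first 2 panels.

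Other mitotic genes outside the 50 gave a like picture with smaller differences. Of 66 listed, 57 were tested and 56 had higher means, and the median log2 fold change was 0.53. By limma 0 passed in the 8 libraries, and 38 had an unadjusted p under 0.05 as higher. Stil, a centriole assembly factor, had 0.727 ± 0.186 and 2.30 ± 0.365 CPM (0.93, SE 0.18, adjusted p = 0.0815). Arhgap11a had 10.3 ± 0.491 and 19.8 ± 5.26 CPM (0.85, adjusted p = 0.0937), and Kif18a, a kinetochore motor, 1.98 ± 0.116 and 4.19 ± 0.734 CPM (0.79, adjusted p = 0.0937). In all 3 the diets did not overlap and normal-salt library 1 lay among its own diet. Pbk, a mitotic kinase, passed without that library (1.79, adjusted p = 0.0369).

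DNA replication and S-phase genes, which act before mitosis, had higher means in 44 of 45 tested members (median log2 fold change 0.57). By limma 0 passed in the 8 libraries, with 32 at an unadjusted p under 0.05, and 4 passed without normal-salt library 1: Atad2, Lig1, Pole and Tk1. Atad2, a chromatin-binding ATPase, had 6.19 ± 1.56 and 15.1 ± 3.16 CPM, and Pole, the catalytic subunit of DNA polymerase epsilon, 2.22 ± 0.663 and 7.13 ± 2.51 CPM, both without overlap (adjusted p = 0.0529 and 0.0815 in the 8 libraries). The list summed to 704, 582, 572 and 537 CPM and then 737, 902, 776 and 1158 CPM, so that all high-salt libraries were above all normal-salt libraries. The S-phase sum was highest in high-salt library 6, and the mitotic sum in high-salt library 3. Of the E2F, B-MYB and DREAM genes 13 of 20 had higher means (median log2 fold change 0.09), and 0 passed by limma, with 6 at an unadjusted p under 0.05. E2f1, the transcription factor of S-phase entry, had 2.68, 0.597, 0.945 and 0.634 CPM and then 3.76, 6.53, 6.58 and 14.8 CPM without overlap (1.96, SE 0.37, adjusted p = 0.0815, and 0.0362 without normal-salt library 1). Mybl1 had 2.29 ± 0.337 and 4.93 ± 0.828 CPM and E2f7, a repressor of the same family as E2f1, 0.382 ± 0.169 and 1.46 ± 0.187 CPM, both without overlap (adjusted p = 0.0887 and 0.135). Mybl2, which encodes B-MYB, had 1.86 ± 0.298 and 1.95 ± 0.512 CPM (0.04, SE 0.19, adjusted p = 0.966).

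Genes upstream of the division programme and its constitutive machinery were split between directions. Of 11 G1 cyclins and kinases 5 had higher means (median log2 fold change -0.04), and 0 passed by limma, with 2 at an unadjusted p under 0.05. Ccnd1, the D-type cyclin of G1, had 1009 ± 167 and 1015 ± 397 CPM (-0.05, adjusted p = 0.965), and Myc, a growth-promoting transcription factor, 7.08 ± 3.68 and 14.7 ± 2.92 CPM (1.05, adjusted p = 0.202). Skp2, which targets the inhibitor p27 for destruction, and Ccnd3, another D-type cyclin, had log2 fold changes of 0.56 and 0.11. Of 18 tested cell cycle inhibitors and quiescence genes 8 had higher means (median -0.05), and 0 passed by limma, with 2 at an unadjusted p under 0.05. These were Cdkn1a, the p53-induced inhibitor p21, at 10.8 ± 2.30 and 13.8 ± 1.66 CPM (0.34, adjusted p = 0.481), and Sesn1, another p53 target, at 37.2 ± 4.05 and 49.5 ± 5.73 CPM (0.40, adjusted p = 0.216). Gadd45g, a stress-induced growth arrest gene, followed at 170 ± 42.5 and 133 ± 33.3 CPM (-0.35, adjusted p = 0.588). The 16 core subunits and partners of the anaphase-promoting complex, which most cells make throughout the cycle, had higher means in 7 (median -0.09), and 0 passed by limma, with 1 higher and 3 lower at an unadjusted p under 0.05. Cdc26, Anapc16 and Anapc11 had the smallest p in that list, all lower, with log2 fold changes of -0.27, -0.35 and -0.30 (adjusted p = 0.332, 0.33 and 0.429).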

How the data were processed

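The authors deposited 2 tables of 55291 gene symbols, each with 1 column per library. The labels' protocols name a stranded mRNA kit, and the submitters' processing notes name FastQC, Trimmomatic and mm10. Aligner, counting program, strand setting and annotation: not given in the sources used here. One table, named as CPM, held log2 values as deposited, with a shared floor of -5.29. The deposited TPM values summed to 999838 to 999898 per library.

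The log2 values were turned back to linear CPM, as the planned test required. The steps between low CPM values were multiples of 0.01 of a count (tolerance 0.05 of a step). Of low values, 83.8% to 85.0% were whole counts within 0.005, so the values stem from estimated counts. The main test used no count model. Voom, used as an alternative fit, took the estimated counts. Column names give the diet but not the sample title. Genes of at least 1 CPM in 4 libraries were tested by limma 3.58.1 (R 4.3.3) on log2(CPM + 1), with trend, two-sided, and Benjamini-Hochberg adjustment over 13401 genes. A library came from a single mouse, and whether all mice differ is not stated, so p-values measure the spread between these libraries. Members and lists were chosen with earlier results of these data known. Named were 5 set members, for each role the 2 smallest p and the largest, members that passed with or without normal-salt library 1, those not tested, and the 3 highest and lowest in TPM. Ccnb2, Plk1, Nuf2, Cenpa, Tpx2, Nusap1, Hmmr, Kif2c, Ncapd2, Prc1, Kif4, Kif20a, Kif20b and Ect2 are outside this rule and are given so that every member is accounted for. From the other lists, genes that passed or the 3 smallest p were named. On simulated counts for high against normal salt (13434 genes), 69.2% of 1.5-fold and 94.4% of 2-fold changes were recovered, with 6.44% false calls. Each gene was drawn on its own there, with no library set apart, unlike normal-salt library 1 for the members. How far these percentages hold for the members was not tested. In the 8 libraries the tested members had a median ratio of mean CPM of 2.16, high over normal salt, and 0 of 48 passed. Promoter windows are RefSeq's.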

Additional observations from a re-analysis of the deposited data

Results flagged for a closer look

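Among 36 named members, 72 groups of 4 libraries were compared for a library far from the other 3 (a gap, as a share of the group's range, above Dixon's 95% critical value), of which chance gives about 1 in 20. In 4 of the 72 groups this was so, which is near that share. The members share their libraries, so the 3 groups that name normal-salt library 1 are not separate events. Normal-salt library 1 was the high one for Cdk1 (4.46 CPM, against 0.774 to 1.12 CPM in the other normal-salt libraries), for Iqgap3 (5.26 CPM, against 1.22 to 1.71 CPM) and for Aurka (5.46 CPM, against 1.15 to 1.87 CPM). High-salt library 2 was the low one for Ncapg (2.45 CPM, against 3.23 to 3.38 CPM in the other high-salt libraries).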

How the results depend on the processing

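Limma called 0 members in the 8 libraries (37 at an unadjusted p under 0.05) and also 0 with any other pseudocount, filter or scaling, with TPM, the deposited log2 values, robust moderation or voom. It called 19 with array quality weights, 22, 11 and 4 with the fibroblast, macrophage and thick ascending limb covariates, and 0 to 15 with 1 library left out, where only leaving out normal-salt library 1 gave any. Over all genes 11 were called, and 0 without a filter (1079 higher and 854 lower at an unadjusted p under 0.05), 5 in TPM, 22 with robust moderation, 129 with array weights, 242, 54 and 43 with those covariates, and 0 to 50 with 1 library left out: 50 with normal-salt library 1 left out, 0 for normal-salt 3 and for high-salt 4, 1 for normal-salt 6 and for high-salt 3, and 5 for high-salt 2. In these fits 47 of 48 members had higher means (49 of 50 without a filter or with the lower one, 43 of 43 in TPM). Their median log2 fold change of 0.91 was 1.35 on the deposited log2 values and 1.44 with voom, which add less to low values, and 0.73 to 1.18 with 1 library left out. Kif23 alone turned direction, to 0.38 in TPM. Column numbers 2, 3 and 6 occur in both diets, and their correlations of deviations were 0.21, 0.29 and 0.002, which does not establish that the numbers pair mice. With a replicate block on these 6 libraries 7 members and 37 genes were called, and 9 members and 23 genes with no block. At this depth low members rest on few counts, down to 7 for Melk in normal-salt library 6.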

Other observations

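The CPM and TPM tables did not carry the same length for a gene in every library. The number of CPM per TPM differed more than 2-fold between libraries in 13 of the 50 members. For Espl1 it ran from 0.495 to 4.45, for Kntc1 from 0.767 to 5.08 and for Foxm1 from 0.772 to 3.39, whereas for Hmmr it ran from 2.08 to 2.21. Ncapg in normal-salt library 1 had 1.37 CPM and 2.10 TPM, and in high-salt library 2 it had 2.45 CPM and 1.24 TPM, so that the order of these libraries turned between tables. The 4 high-salt libraries lay above all normal-salt libraries in 19 members in CPM (3.66% of all genes tested). In TPM they did so in 17 of the 50, and in 13 of the 43 tested there (3.8% of all genes tested there). In both measures 12 members did so, for which the share over all genes was not counted. Among the members that did so in CPM alone were Espl1, Ncapg and Ect2, and among those in TPM alone were Cdk1, Ccna2 and Stmn1.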
